A study of Mus musculus with 16 samples.

Results

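The pooled Ing5 effect was examined by setting 8 E10.5 mouse hearts labelled Ing5-/- against 8 hearts labelled Ing5+/+, on both Ing4 backgrounds at once. The genes described are those that passed the test only when all 8 hearts stood on each side, and not when the same difference was tested with 4 hearts a side on either Ing4 background. There were 176 such genes, among 288 called in the pooled comparison and 15785 tested. The Ing5-/- side held 4 Ing4+/- Ing5-/- hearts, which keep 1 Ing4 allele, and 4 Ing4+/+ Ing5-/- hearts, which keep both. The Ing5+/+ side held 4 Ing4+/- Ing5+/+ hearts and 4 Ing4+/+ Ing5+/+ hearts, the last being wild type at both genes. Each library is RNA of the whole heart of 1 embryo, and the embryos came from 7 litters. The title of the series names acetylation of histone H3 lysine 14 and the epicardial lineage as its subjects. Which part of either gene was deleted, the strain, and whether a deletion is limited to some cells is not stated in the labels.

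ING4 and ING5 are related proteins whose PHD finger binds histone H3 trimethylated at lysine 4, and both serve as subunits of acetyltransferase complexes built around HBO1, with ING5 also found in complexes of MOZ and MORF. At this stage the mouse heart is a beating tube that is forming chambers. Its muscle wall is lined by endocardium and is being covered by epicardium, while the first macrophages, which derive from the yolk sac, settle in it. A whole-heart library mixes all of these cells, so more cells of a type and more RNA of a gene per cell cannot be told apart.

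The libraries held 19753100 to 35664331 counted reads. Defining heart muscle genes were abundant on both sides, Tnnt2 with 1510 to 2470 CPM (read counts scaled to library size, as counts per 1e6 reads) in Ing5-/- and 2240 to 2670 CPM in Ing5+/+ hearts, and Myh6 with 3290 to 4660 against 4070 to 5150 CPM. 3 hearts stood apart on the first 3 principal components, which held 25.3, 14.7 and 12.3% of the variance. Ing4+/- Ing5+/+ 4 had counts for the fewest genes (15934, against 17336 to 19004 in the others) and held Y-linked transcripts together with 16 CPM of Xist. Ing4+/+ Ing5-/- 1 had the highest summed level of the epicardial list (3710 CPM, against 1654 to 2337 CPM in all other hearts) and the lowest of the cardiomyocyte list (31670 CPM, against 41420 to 51450 CPM). Ing4+/- Ing5-/- 2 had the largest share of haemoglobin reads, 4.64%. Without these 3 hearts 363 genes were called, 220 of them only in the pooled comparison, and 117 of the 176 genes were called again.

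The targeted gene was lower but not absent where the labels state Ing5-/-. Ing5 (gene ID 66262, chromosome 1, 93803926 to 93822101, GRCm38) had 18.5 CPM at the lowest, 21.1 at the median and 29.3 at the highest in Ing5-/- hearts, against 28.9, 35.3 and 42.3 CPM in Ing5+/+ hearts. 7 of the 8 Ing5-/- hearts lay below every Ing5+/+ heart, and Ing4+/+ Ing5-/- 1, at 29.3 CPM, lay just above the lowest of them. The log2 fold change was -0.67 ± 0.09 (edgeR adjusted p = 0.00203; here and below ± is the standard error with 8 hearts a side). Counts cover the whole gene, so the remaining reads say nothing about protein. Ing4 had 32.5 to 60.7 CPM in Ing5-/- and 28.2 to 44.4 CPM in Ing5+/+ hearts, and its difference did not pass (0.19 ± 0.09, edgeR adjusted p = 0.316).

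Pooling brought more genes past the threshold than 4 hearts a side on either background. At an edgeR adjusted p under 0.05 the pooled comparison called 288 genes (1.82% of those tested), 184 higher (1.17%) and 104 lower (0.659%) in Ing5-/- hearts. With 4 hearts a side, 173 genes (1.10%) were called among Ing4+/- hearts and 0 among Ing4+/+ hearts. On the Ing4+/+ background 1542 genes (9.77%) had an unadjusted p under 0.05, DESeq2 called 43 and limma-voom 0. The 176 genes called only with 8 hearts a side (1.11% of those tested) comprised 106 that were higher (0.672%) and 70 that were lower (0.443%) in Ing5-/- hearts. The other 112 genes, 78 higher and 34 lower, were also called among Ing4+/- hearts, and 61 genes called there were not called in the pooled comparison.

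The fold changes of the 176 genes had the same sign on both backgrounds, and 160 of them had an unadjusted p under 0.05 on each. In 72 the change was larger on the Ing4+/+ background, against 3 of the 112 genes that Ing4+/- hearts alone also called. The rule itself chose against genes with a strong change on 1 background, so these counts describe the choice and support nothing. Their adjusted p among Ing4+/- hearts ran from 0.0512 to 0.422 with a median of 0.115, and 69 were under 0.10 there. The test of a difference between the backgrounds, the Ing5 by Ing4 interaction, called 0 of the 15785 genes with edgeR (lowest adjusted p 0.136), 7 with DESeq2 and 0 with limma-voom. At an unadjusted p under 0.05 it held 952 genes (6.03%), among them 1 of the 176 genes (0.568%) and 37 of the other 112 (33.0%). The rule split these genes by their p on each background, so these shares too describe the choice and support nothing.

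**Figure D1:**
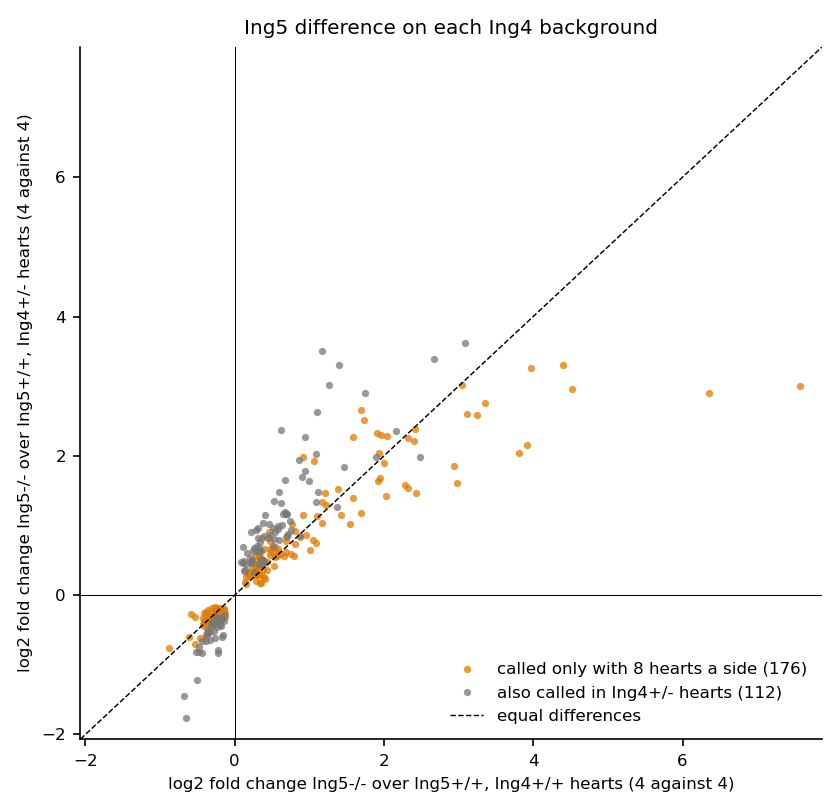
Each point is a gene called in the pooled comparison, with its log2 fold change, Ing5-/- over Ing5+/+, among Ing4+/+ hearts on the x axis and among Ing4+/- hearts on the y axis (4 against 4 each), and a dashed line of equal differences. The 176 genes called only with 8 hearts a side (orange) lie on both sides of the line, while all but 3 of the other 112 (grey) changed more among Ing4+/- hearts.

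Among the 176 genes so chosen, those that rose and those that fell differed in size and level. The median log2 fold change was 0.75 over the 106 higher genes, at a median level of 4.94 CPM, and 43 of them were past 2-fold. The 70 lower genes had a median of -0.27 at a median level of 44.1 CPM, and 0 were past 2-fold. In all, 109 of the 176 changes were within 1.5-fold. The median level of all genes tested was 23.2 CPM. The 20 genes with a mean under 1 CPM were all higher. The filter on low counts can admit such genes through the group where they are high, so their direction is not evidence. They also count in the size and level of the higher genes, which were not computed without them, so nothing is read from that difference. In 30 of the 176 genes the 8 Ing5-/- hearts did not overlap the 8 Ing5+/+ hearts, which held for 0.596% of all genes tested. The same 16 hearts chose the 176 genes, so nothing is read from that share.

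Genes of macrophages rose, and most of them passed only with 8 hearts a side. Of 19 list members tested, 14 were higher (73.7%, against 1.82% called among all genes), 0 were lower and 5 were not called, and 11 of the 14 were called only in the pooled comparison. Tyrobp and Ptprc, counted among the 14, had means under 1 CPM and could have passed the low-count filter through the Ing5-/- hearts alone. C1qa, also among the 14, could have passed it the same way, with at most 0.543 CPM in any Ing5+/+ heart. The median log2 fold change of the list was 1.91, against 0.01 over all genes. The count was 16 with DESeq2, 6 with limma-voom, 11 without the 3 hearts that stood apart and 5 with litter as a block. Of the 5 not called, Adgre1 (2.08, adjusted p = 0.0649), Ctss, Aif1 and Cd68 had positive fold changes, and Lyz2 was at -0.07.

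The receptors and signalling adaptors of macrophages were low in every heart and stood highest in the same Ing5-/- hearts. Cx3cr1, the fractalkine receptor (chromosome 9, 120048683 to 120068296), had 0.872, 4.45 and 5.6 CPM as the lowest, median and highest of the Ing5-/- hearts, against 0.61, 0.97 and 1.95 CPM in Ing5+/+ hearts (log2 fold change 1.80 ± 0.31, edgeR adjusted p = 0.00458). 6 Ing5-/- hearts had 4.01 to 5.6 CPM, above every Ing5+/+ heart, while Ing4+/+ Ing5-/- 3 and 4 had 0.872 and 1.78 CPM, within the Ing5+/+ range. Tyrobp, an adaptor with an activating motif that myeloid receptors signal through, had 0.397, 1.02 and 2.34 CPM in Ing5-/- hearts, against 0.174, 0.224 and 0.303 CPM in Ing5+/+ hearts (2.31 ± 0.39, adjusted p = 0.00408). Tyrobp had 47 reads in all 8 Ing5+/+ hearts together and 275 in the Ing5-/- hearts. Ing4+/+ Ing5-/- 3 and 4 were again the lowest of their side, though above every Ing5+/+ heart. Fcrls, an Fc receptor-like gene of resident macrophages and microglia, had 0.714, 2.58 and 3.19 CPM in Ing5-/- hearts, against 0.0345, 0.347 and 0.915 CPM in Ing5+/+ hearts (2.72 ± 0.43, adjusted p = 0.00287). The Fc receptor Fcgr3 rose by 1.91 ± 0.37 (adjusted p = 0.00954). Its signalling chain Fcer1g rose by 1.43 ± 0.34 (0.0359), a call lost without any of 10 hearts (adjusted p up to 0.0821, without Ing4+/- Ing5-/- 3).

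The 3 chains of complement C1q, which lie side by side on chromosome 4 (C1qb from 136880126, C1qa to 136898844), rose together. C1qa had 0.23, 2.25 and 3.98 CPM in Ing5-/- hearts and 0, 0.272 and 0.543 CPM in Ing5+/+ hearts (3.01 ± 0.54, edgeR adjusted p = 0.00566). C1qc had 0.689, 4.34 and 7.77 CPM in Ing5-/- hearts and 0, 0.409 and 1.17 CPM in Ing5+/+ hearts (2.86 ± 0.52, 0.00566). As with Cx3cr1, 6 Ing5-/- hearts lay above all Ing5+/+ hearts for C1qc, and Ing4+/+ Ing5-/- 3 and 4 did not. C1qb rose by 2.13 ± 0.50 (adjusted p = 0.0316), but the call was lost without any of 11 hearts, with adjusted p up to 0.0717 without Ing4+/- Ing5+/+ 1. C3, the central complement component, which is on the epicardial list, had 0.861 to 3.24 CPM in Ing5-/- hearts and 0 to 0.742 CPM in Ing5+/+ hearts, with no overlap (2.12 ± 0.42, 0.00967).

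The transcription factor Spi1 (PU.1), required for myeloid cells, had 0.555, 2.4 and 3.61 CPM in Ing5-/- hearts, against 0.19, 0.765 and 1.23 CPM in Ing5+/+ hearts (1.46 ± 0.30, edgeR adjusted p = 0.0153). 7 of the 8 Ing5-/- hearts were above every Ing5+/+ heart. Ptprc (CD45), the common leukocyte phosphatase, rose by 2.15 ± 0.41 (adjusted p = 0.00853). Mrc1, the mannose receptor of tissue macrophages, rose by 1.28 ± 0.28 (0.0223), but had adjusted p of 0.0592, 0.05 and 0.0509 without Ing4+/- Ing5-/- 2, Ing4+/- Ing5-/- 3 and Ing4+/+ Ing5+/+ 2. The list members that also passed among Ing4+/- hearts were the receptor Csf1r, the lysosomal gene Laptm5 and the clotting factor subunit F13a1 (1.66, 0.90 and 1.94).

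Other genes known from myeloid cells, outside the list, were among the largest rises. Mpeg1, a pore-forming protein of macrophages, rose by 2.13 ± 0.49 (edgeR adjusted p = 0.0282) and lost the call without 4 hearts, with adjusted p of 0.0676 without Ing4+/- Ing5-/- 3, 0.0578 without Ing4+/- Ing5+/+ 1 or Ing4+/+ Ing5+/+ 4, and 0.0553 without Ing4+/+ Ing5-/- 2. Myo1f, a myosin of leukocytes, rose by 1.76 ± 0.34 (0.00889) and Cd300a, an inhibitory leukocyte receptor, by 1.49 ± 0.36 (0.0394). Cd300a lost the call without any of 12 hearts (adjusted p up to 0.0896). Rgs11, a regulator of G protein signalling that is not counted here as a myeloid gene, was also among the largest rises (1.49 ± 0.30, 0.0143). Msr1, a scavenger receptor, and the chemokine gene Ccl9, both chosen after their values were seen, had 17 and 20 reads in all 8 Ing5+/+ hearts together and 238 and 265 reads in the Ing5-/- hearts. Their fitted log2 fold changes of 3.67 ± 0.72 and 3.55 ± 0.60 (adjusted p = 0.00967 and 0.00397) therefore rest on few reads. Both genes could have passed the low-count filter through the Ing5-/- hearts alone.

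Csf2rb2, a receptor chain for interleukin 3, varied widely among the Ing5-/- hearts. It stood at 54.4 CPM in Ing4+/- Ing5-/- 2 and 30.6 CPM in Ing4+/+ Ing5-/- 4, the hearts with the largest shares of haemoglobin reads (4.64 and 3.22%), and at 3.12 to 10.4 CPM in the other 6 Ing5-/- hearts, against 1.44 to 6.96 CPM in Ing5+/+ hearts. Its log2 fold change was 2.18 ± 0.51 (edgeR adjusted p = 0.0328; 0.0156 with the haemoglobin level as covariate). The call was lost without any of 8 hearts, with adjusted p up to 0.0829 without Ing4+/+ Ing5-/- 4. Ing4+/- Ing5-/- 2 and Ing4+/+ Ing5-/- 4 also had 595 and 400 CPM of Xist and 0.166 and 0.0287 CPM of Y-linked transcripts, while the other 6 Ing5-/- hearts held Y-linked transcripts. Sex and blood content cannot be told apart in these hearts, and neither was tested as a cause. Csf2rb2 is a near copy of Csf2rb, and reads that fit both may have been split between them.

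Summed over the 19 genes, the macrophage list made the split within the Ing5-/- hearts plain. The 4 Ing4+/- Ing5-/- hearts had 77.5, 115.6, 120.3 and 87.9 CPM, and Ing4+/+ Ing5-/- 1 and 2 had 113.7 and 106.5 CPM. Ing4+/+ Ing5-/- 3 and 4 had 45.4 and 46.2 CPM, inside the range of the 8 Ing5+/+ hearts (36.9 to 54.0 CPM, median 47.0). By this sum the rise was seen in 6 of 8 hearts, and within Ing4+/+ Ing5-/- hearts in 2 of 4. Single members differed. Tyrobp in Ing4+/+ Ing5-/- 3 and 4 (0.397 and 0.488 CPM) was above every Ing5+/+ heart, while Cx3cr1 and C1qc in these hearts were within the Ing5+/+ range. Ing4+/+ Ing5-/- 1 and 2 came from litter 1, and Ing4+/+ Ing5-/- 3 and 4 from litters 2 and 7. Ing4+/- Ing5-/- 4, also of litter 7, had 87.9 CPM. Litter cannot be told apart from the rest of what differs between these 4 hearts. The summed erythroid list did not follow the same order: it was 50310 and 34430 CPM in Ing4+/- Ing5-/- 2 and Ing4+/+ Ing5-/- 4 and 5813 to 19120 CPM in the other Ing5-/- hearts, against 5030 to 20230 CPM in Ing5+/+ hearts. With the haemoglobin level as covariate 14 of the 19 macrophage genes were called higher, not necessarily the same 14. The summed endoderm and liver list was highest in Ing4+/+ Ing5-/- 1 and 2, at 32.4 and 22.4 CPM. It was 8.01 and 7.75 CPM in Ing4+/+ Ing5-/- 3 and 4. In the 4 Ing4+/- Ing5-/- hearts, where the macrophage sum was also high, it was 8.26 to 11.4 CPM, against 3.66 to 10.3 CPM in Ing5+/+ hearts. Whether blood content or neighbouring tissue had a part in the rise was not tested.

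**Figure D2:**
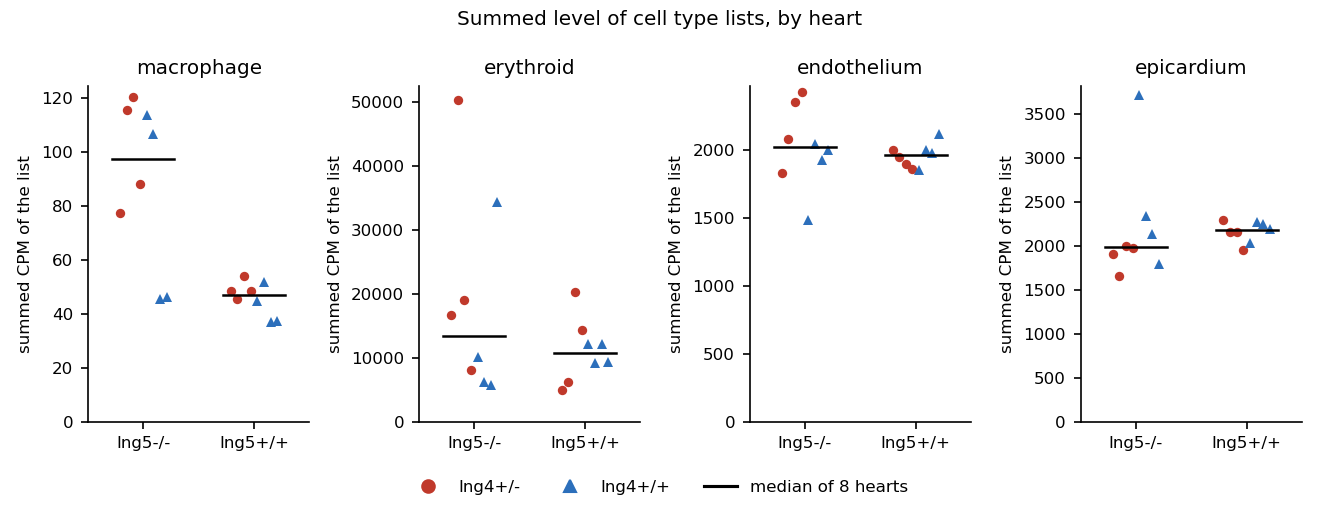
Summed CPM of the macrophage, erythroid, endothelial and epicardial lists in each heart, Ing5-/- left and Ing5+/+ right, with Ing4+/- hearts as red circles, Ing4+/+ hearts as blue triangles and a bar at the median of 8 hearts. For the macrophage list 6 Ing5-/- hearts lie between 77.5 and 120.3 CPM, and Ing4+/+ Ing5-/- 3 and 4 lie at 45.4 and 46.2 CPM among the Ing5+/+ hearts.

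Hypoxia-response and glycolysis genes rose too, but most of these had already passed among Ing4+/- hearts. HIF1A is the oxygen-regulated subunit of the transcription factor that drives this response, and prolyl hydroxylases mark it for breakdown when oxygen is present. Of 26 genes of the response, 14 were higher, 1 was lower and 11 were not called (57.7% called, against 1.82% of all genes; median log2 fold change 0.38), and 3 of the 15 were called only with 8 hearts a side, namely Bnip3l and Ddit4, which were higher, and Hif1a, which was lower. Of 21 glycolysis genes 6 were higher, 0 were lower and 15 were not called (28.6% called; median 0.35), and Pfkfb3 and Slc16a3 were called only in the pooled comparison. DESeq2 called 18 hypoxia-response genes higher and 1 lower, and 15 glycolysis genes higher. Without the 3 hearts that stood apart 16 and 14 genes of these lists were higher, and with litter as a block 7 and 2. By smallest p, the first of the genes that also passed among Ing4+/- hearts were Cox4i2, a respiratory chain subunit induced by low oxygen (1.32 ± 0.13, edgeR adjusted p = 0.000116), and the vascular growth factor Vegfa (0.80 ± 0.09, 0.000199). Egln3, an oxygen-sensing prolyl hydroxylase, followed (0.94).

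The promoter windows of 3 of these 5 pooled-only genes are shown because the core of the hypoxia response element, ACGTG, can be looked up in them. Slc16a3 and Ddit4 were higher and Hif1a was lower in Ing5-/- hearts. Each runs from 250 bases before to 50 bases after a transcription start, 5′ to 3′ on the gene's strand, from RefSeq (GRCm38.p6), with every match to ACGTG or its reverse complement CACGT in capitals. The first lies at chr11:120948817-120949116 on the plus strand, the second at chr10:59951721-59952020 on the minus strand and the third, for 1 of the starts of its gene, at chr12:73907617-73907916 on the plus strand.
Slc16a3: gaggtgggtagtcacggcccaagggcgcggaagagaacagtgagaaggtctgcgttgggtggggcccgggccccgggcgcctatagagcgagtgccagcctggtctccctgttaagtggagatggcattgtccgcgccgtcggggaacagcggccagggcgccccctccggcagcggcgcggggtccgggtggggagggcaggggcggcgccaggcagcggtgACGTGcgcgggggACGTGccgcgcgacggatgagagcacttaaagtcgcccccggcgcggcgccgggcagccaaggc
Ddit4: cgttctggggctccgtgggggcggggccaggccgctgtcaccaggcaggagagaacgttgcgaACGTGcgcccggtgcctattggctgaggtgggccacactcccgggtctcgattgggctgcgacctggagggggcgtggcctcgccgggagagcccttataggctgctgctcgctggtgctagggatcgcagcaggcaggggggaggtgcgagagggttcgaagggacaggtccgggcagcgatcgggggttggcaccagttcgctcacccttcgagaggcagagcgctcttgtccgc
Hif1a: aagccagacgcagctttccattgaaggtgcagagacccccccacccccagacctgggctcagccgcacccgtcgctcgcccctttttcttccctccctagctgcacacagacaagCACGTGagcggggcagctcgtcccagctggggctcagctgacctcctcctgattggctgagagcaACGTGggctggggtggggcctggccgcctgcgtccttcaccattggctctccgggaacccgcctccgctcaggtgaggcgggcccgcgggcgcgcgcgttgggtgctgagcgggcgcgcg
The window of Slc16a3 held 2 matches, that of Ddit4 held 1, and that of Hif1a held 3 at 2 places, since the palindrome CACGTG counts on both strands. Windows of both Pfkfb3 starts in the table held a match. The letters occurred in 6447 of the 32851 promoter windows of the table (19.6%), in 43 of 166 windows of 136 of the pooled-only genes (25.9%), in 31 of 106 windows of the other called genes (29.2%) and in 13 of 19 windows of the 15 called members of these lists that had one (68.4%). GAGGAAGT, a motif bound by the PU.1 protein of macrophages, and its reverse complement ACTTCCTC were searched in the same way. They occurred in 1052 of all windows (3.2%), in 5 of the 166 pooled-only windows (3.01%) and in 2 of 13 windows of the 10 called macrophage genes that had one (15.4%). Windows of the uncalled members of the lists were not counted, so nothing about being called is read from the shares among called members. A match describes the letters only and is not a bound site.

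Slc16a3, the lactate exporter MCT4 (chromosome 11, 120948484 to 120959000), had 302, 415 and 571 CPM as the lowest, median and highest of the Ing5-/- hearts, against 288, 306 and 359 CPM in Ing5+/+ hearts (0.44 ± 0.09, edgeR adjusted p = 0.0197). 7 Ing5-/- hearts lay above all Ing5+/+ hearts, and Ing4+/+ Ing5-/- 1 had the lowest level of its side. Pfkfb3, which makes the activator of phosphofructokinase, had 32.7, 40.2 and 47.9 CPM in Ing5-/- hearts, against 28.6, 31.3 and 37.8 CPM in Ing5+/+ hearts (0.35 ± 0.08, 0.027). It lost the call without any of 8 hearts (adjusted p up to 0.0597, without Ing4+/- Ing5-/- 3). Ddit4, an inhibitor of mTOR signalling, rose by 0.35 ± 0.08 (0.0377) and Bnip3l, which directs mitochondria to autophagy, by 0.35 ± 0.09 (0.0406). Each lost the call without any of 10 hearts, with adjusted p up to 0.0785 and 0.0931. The rise of Ddit4 was present in the littermate pairs of litters 6 and 7 (0.55 and 0.86) and not in that of litter 4 (-0.0037).

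Hif1a (chromosome 12, 73901324 to 73947554) moved against its list. It had 291, 410 and 457 CPM in Ing5-/- hearts, against 444, 507 and 550 CPM in Ing5+/+ hearts, and 6 of the 8 Ing5-/- hearts were below every Ing5+/+ heart. The log2 fold change was -0.31 ± 0.07 (edgeR adjusted p = 0.0284), of like size among Ing4+/- hearts (-0.30) and Ing4+/+ hearts (-0.32). It was negative in the littermate pairs of litters 4, 6 and 7 (-0.32, -0.20 and -0.29). The call was lost without any of 8 hearts, with adjusted p between 0.0505 and 0.0632. The related Epas1 and Arnt were not called (-0.06 and -0.04).

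Single genes of collagen modification, chosen after their values were seen, were also higher, and no list of such genes was tested. Loxl2, a lysyl oxidase that crosslinks collagen, had 251, 308 and 391 CPM in Ing5-/- hearts, against 215, 239 and 271 CPM in Ing5+/+ hearts (0.37 ± 0.08, edgeR adjusted p = 0.0152). Plod2, a lysyl hydroxylase, rose by 0.36 ± 0.08 (0.0188), with 7 Ing5-/- hearts above all Ing5+/+ hearts. P4ha1 and P4ha2, prolyl hydroxylases of collagen on the low oxygen list, rose by 0.44 and 0.69 and had also passed among Ing4+/- hearts.

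**Figure D3:**
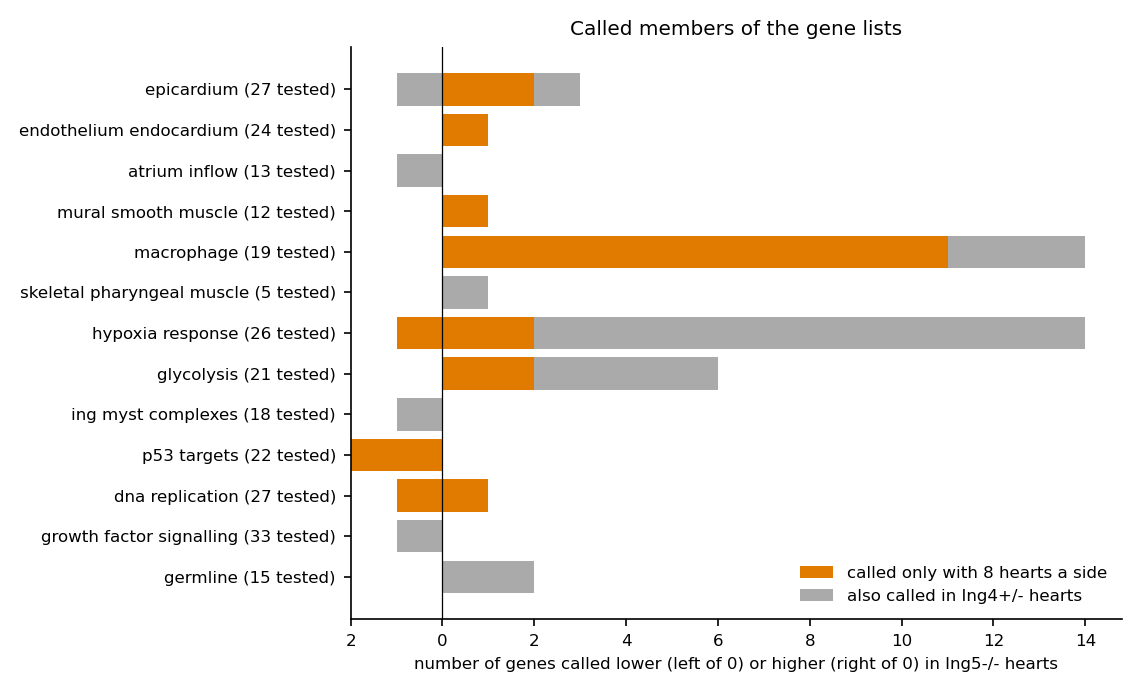
Number of called members of each list with at least 1 call, lower in Ing5-/- hearts left of 0 and higher right of 0, with genes called only with 8 hearts a side in orange and those also called among Ing4+/- hearts in grey. Orange makes up 11 of 14 macrophage calls, against 3 of 15 for hypoxia response and 2 of 6 for glycolysis.

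Single genes of vessels and of surface epithelium passed without the rest of their lists. Notch3, the Notch receptor of mural cells (chromosome 17, 32120820 to 32166896), had 57.9, 67.7 and 85.3 CPM in Ing5-/- hearts, against 44.8, 49.0 and 54.2 CPM in Ing5+/+ hearts, with no overlap. Its log2 fold change was 0.47 ± 0.07 (edgeR adjusted p = 0.00266), and it was 0.46, 0.51 and 0.53 within the pairs of litters 4, 6 and 7. It was the 1 called gene of 12 mural and smooth muscle genes. Egfl7, a secreted factor of endothelial cells, rose by 0.27 ± 0.05 (0.00893) as the 1 called gene of 24 endothelial and endocardial genes, of which 20 had a positive fold change and 6 a rise at an unadjusted p under 0.05. Pecam1 and Cdh5, which define endothelium, stood at 0.10 each and were not called.

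Krt8, a keratin of simple epithelia including epicardium (chromosome 15, 101996711 to 102004342), had 57.5, 65.5 and 99.4 CPM in Ing5-/- hearts, against 42.4, 50.4 and 56.1 CPM in Ing5+/+ hearts (0.56 ± 0.10, edgeR adjusted p = 0.00565). The groups did not overlap, and the fold change was 0.56 on each Ing4 background. Krt19, its partner in such filaments, rose by 0.74 ± 0.11 (0.00203) and had also passed among Ing4+/- hearts, and Krt18 was not called (0.44, adjusted p = 0.0564). Of 27 epicardial genes 3 were higher (Krt8, Krt19 and C3), 1 was lower (Mab21l2, a call lost without any of 7 hearts) and 23 were not called (14.8% called; median -0.04). The median was -0.30 among Ing4+/- hearts and 0.24 among Ing4+/+ hearts, a difference that was not tested. The factors that define epicardium did not pass, Wt1 with 48.5 to 150 CPM in Ing5-/- and 59.2 to 74.5 CPM in Ing5+/+ hearts and Tcf21 with 22.5 to 106 against 31.7 to 57.4 CPM. The highest value of both was in Ing4+/+ Ing5-/- 1.

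Bmp6, a ligand of the bone morphogenetic protein family, was chosen after its values were seen. It had 14.4, 16.9 and 19.3 CPM in Ing5-/- hearts, against 8.23, 11.9 and 14.6 CPM in Ing5+/+ hearts (0.53 ± 0.10, edgeR adjusted p = 0.00889), and only Ing4+/+ Ing5-/- 4 fell within the Ing5+/+ range. Myh7b, a slow myosin heavy chain of striated muscle, had 79.5, 93.5 and 136 CPM in Ing5-/- hearts, against 54.4, 70.0 and 74.0 CPM in Ing5+/+ hearts, with no overlap (0.54 ± 0.11, 0.00951). Of 26 cardiomyocyte genes edgeR called 0, with 1 higher and 6 lower at an unadjusted p under 0.05 (median -0.12). DESeq2 called 3 of them lower, and limma-voom 0.

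**Figure D4:**
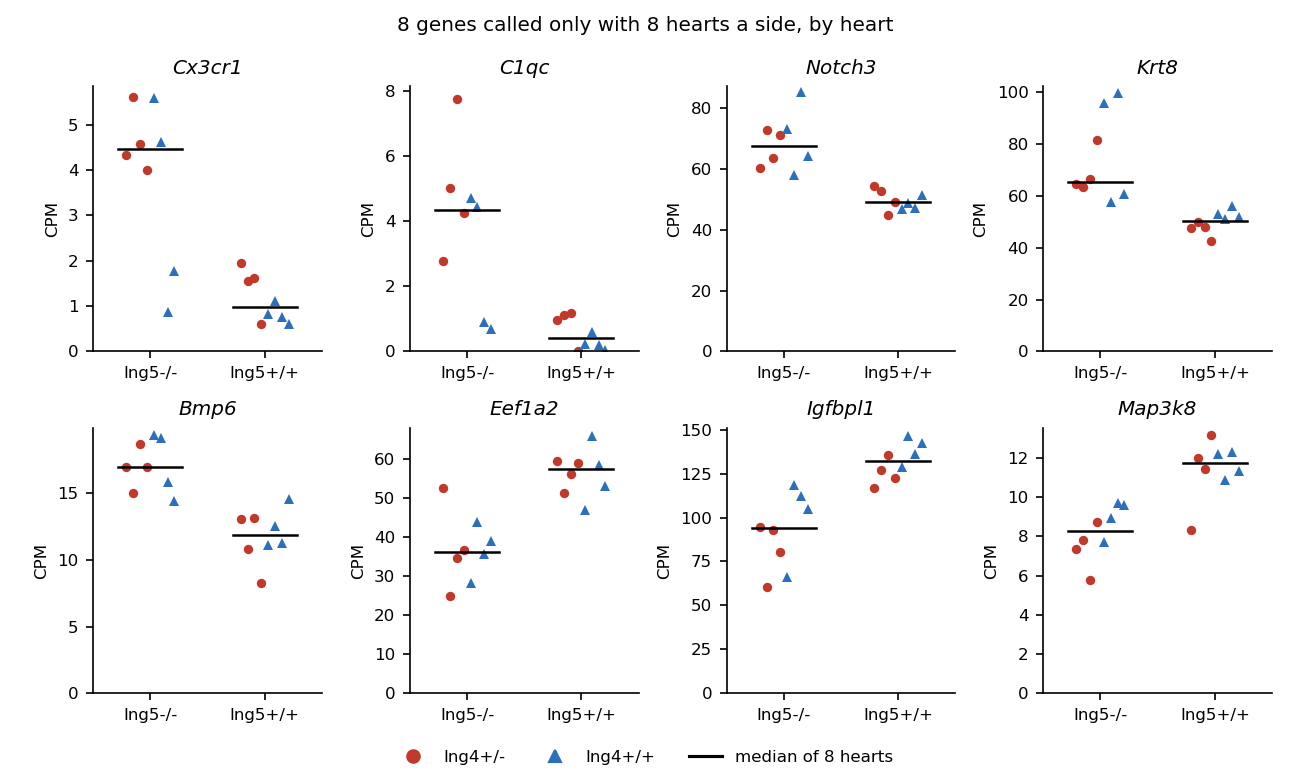
CPM of 8 genes called only with 8 hearts a side in each heart, Ing5-/- left and Ing5+/+ right, with Ing4+/- hearts as red circles, Ing4+/+ hearts as blue triangles and a bar at the median of 8 hearts. Notch3 and Krt8 do not overlap between the sides, whereas for Cx3cr1 and C1qc the 2 lowest Ing5-/- hearts lie among the Ing5+/+ hearts.

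Among the pooled-only genes, the falls were smaller and lay at higher levels than the rises, which include the genes under 1 CPM. Eef1a2, the translation elongation factor isoform of muscle and neurons (chromosome 2, 181141758 to 181157015), had 25.1, 36.3 and 52.7 CPM in Ing5-/- hearts, against 47.1, 57.4 and 66.0 CPM in Ing5+/+ hearts (-0.61 ± 0.12, edgeR adjusted p = 0.00905). 7 of the 8 Ing5-/- hearts were below every Ing5+/+ heart. Igfbpl1, a binding protein of insulin-like growth factor (chromosome 4, 45809507 to 45826827), had 60.7, 93.8 and 118 CPM in Ing5-/- hearts, against 117, 132 and 147 CPM in Ing5+/+ hearts (-0.54 ± 0.10, 0.00889). Again 7 of the 8 Ing5-/- hearts were below the Ing5+/+ range. Map3k8, a kinase upstream of ERK signalling, had 5.76, 8.26 and 9.71 CPM in Ing5-/- hearts, against 8.35, 11.7 and 13.2 CPM in Ing5+/+ hearts (-0.49 ± 0.10, 0.019), and only 4 Ing5-/- hearts lay below all Ing5+/+ hearts. Fam13a fell by 0.43 ± 0.09 (0.018). These 4 genes kept the call without each heart in turn, and Eef1a2 and Map3k8 also with litter as a block (adjusted p = 0.0348 and 0.0297).

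The rest of the 12 largest falls depended on single hearts. Pgbd5, which encodes a protein related to transposases, fell by 0.61 ± 0.14 (edgeR adjusted p = 0.0219), but its adjusted p was 0.0558 without Ing4+/+ Ing5+/+ 4. Npdc1, Gpat3, Il13ra1, Slc9a7, Slc8a2, Pcp4l1 and Tmem200b fell by 0.36 to 0.43, with adjusted p between 0.0366 and 0.049. Each of these 7 lost its call without any of 9 to 13 of the 16 hearts. Gpat3, an acyltransferase of triglyceride synthesis, was the 1 gene among the 12 whose groups did not overlap, with 6.15 to 8.21 CPM in Ing5-/- hearts and 8.5 to 13.3 CPM in Ing5+/+ hearts.

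4 single transcription factors, chosen after their values were seen, were lower, and no list of heart transcription factors was tested. Pbx3, a homeodomain factor that pairs with HOX and MEIS proteins, had 41.6, 51.6 and 55.4 CPM in Ing5-/- hearts, against 58.8, 62.3 and 67.6 CPM in Ing5+/+ hearts, with no overlap (-0.31 ± 0.06, edgeR adjusted p = 0.00753). Foxp1, a forkhead repressor required for heart growth, had 67.6, 75.6 and 88.3 CPM in Ing5-/- hearts, against 85.9, 91.9 and 105 CPM in Ing5+/+ hearts (-0.28 ± 0.06, 0.0177). Both kept the call without each heart. Zfpm2 (FOG2), the partner of GATA4 in the heart, fell by 0.32 ± 0.08 (0.0417) and lost its call without any of 10 hearts. Rarb, a retinoic acid receptor, fell by 0.31 ± 0.07 (0.0226). Its adjusted p was 0.0537, 0.0511, 0.0526, 0.0512 and 0.0531 without Ing4+/- Ing5-/- 1 and 2, Ing4+/- Ing5+/+ 1 and 3, and Ing4+/+ Ing5+/+ 4.

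Genes of fat use, also chosen after their values were seen, were lower by about the same size. Slc25a20, which carries acylcarnitines into mitochondria, had 37.4, 43.0 and 45.0 CPM in Ing5-/- hearts, against 45.3, 51.0 and 56.7 CPM in Ing5+/+ hearts (-0.25 ± 0.05, edgeR adjusted p = 0.0194). Hadh, an enzyme of fatty acid oxidation, had 143, 180 and 190 CPM in Ing5-/- hearts, against 194, 207 and 214 CPM in Ing5+/+ hearts (-0.24 ± 0.05, 0.029). Neither gene overlapped between the groups, and Hadh lost its call without any of 7 hearts (adjusted p up to 0.0668). Lpl, which releases fatty acids from lipoproteins, fell by 0.30 ± 0.07 (0.0214; 0.0501 without Ing4+/- Ing5+/+ 1), with a log2 difference of -0.0016 in the littermate pair of litter 6. No list of fatty acid genes was tested, so these 3 are single genes.

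Of 22 genes of the p53 response, 0 were higher, 2 were lower and 20 were not called (9.09% called), and both calls needed 8 hearts a side. Perp, a membrane protein of cell death and adhesion, had 55.6, 64.0 and 75.1 CPM in Ing5-/- hearts, against 74.7, 82.2 and 84.3 CPM in Ing5+/+ hearts (-0.32 ± 0.05, edgeR adjusted p = 0.0042). 7 Ing5-/- hearts were below all Ing5+/+ hearts. Ccng1 fell by 0.22 ± 0.05 (0.0316) and lost the call without any of 8 hearts. Cdkn1a and Mdm2, the best known targets, stood at -0.04 and 0.03. Of 27 DNA replication genes Pold1, the catalytic subunit of polymerase delta, rose by 0.16 ± 0.04 (0.0366) and Rrm2, a ribonucleotide reductase subunit, fell by 0.25 ± 0.06 (0.0377). These were 7.41% of that list, and they lost their calls without any of 12 and 11 hearts.

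In other lists every call had already been made among Ing4+/- hearts or none was made. Hcn4 of 13 atrial and inflow genes, Igf1 of 33 growth factor genes and Ing5 of 18 genes of ING and MYST complexes were lower, and Tnni2 of 5 skeletal muscle genes and Xlr3a and Fmr1nb of 15 germline genes were higher. These calls made up 7.69, 3.03, 5.56, 20 and 13.3% of their lists in that order, against 1.82% of all genes. Of the 15 germline genes 14 had positive fold changes (median 0.86), and 10 were higher at an unadjusted edgeR p under 0.05. DESeq2 called 4 germline genes higher, limma-voom 3 and the fit with litter as a block 0. Hcn4 lost the call without any of 12 hearts (edgeR adjusted p up to 0.104, without Ing4+/- Ing5-/- 3) and Igf1 without any of 10 (up to 0.084, without Ing4+/- Ing5-/- 2). EdgeR called 0 of 17 erythroid genes, although all 17 had positive fold changes (median 0.71) and 0 had an unadjusted p under 0.05. It called 0 of 33 ribosomal protein genes (median 0.18), of which 16 were higher at an unadjusted p under 0.05. DESeq2 called 3 ribosomal protein genes, and limma-voom 0. For cushion mesenchyme, outflow tract, neural crest and neurons, endoderm and liver, oxidative phosphorylation, histone acetylation, mitosis, immediate early, Hox, imprinted, sex-linked and protocadherin genes, edgeR and limma-voom made 0 calls. DESeq2 called 1 outflow, 1 neural, 1 endodermal and 1 oxidative phosphorylation gene and 2 immediate early genes.

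Genes near Ing5 can differ between the genotypes by linkage. Within 10 Mb of Ing5, 88 genes were tested and 4 were called (4.55%, against 1.82% over all genes), namely Ing5, Inpp5d, Mlph and Rbm44. The share counts Ing5 itself, and was 5.45% within 5 Mb and 3.57% within 20 Mb. Rbm44, an RNA-binding protein, was the 1 pooled-only gene among these 4. It had 4.88, 6.5 and 9.67 CPM in Ing5-/- hearts, against 2.81, 4.5 and 5.1 CPM in Ing5+/+ hearts (0.65 ± 0.15, edgeR adjusted p = 0.0249). Its adjusted p was 0.0637 without Ing4+/- Ing5-/- 2, 0.0529 without Ing4+/- Ing5+/+ 2 and 0.0502 without Ing4+/+ Ing5+/+ 2. Linkage and loss of Ing5 cannot be told apart for these genes.

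The covariate of the pooled model gave the Ing4 effect over the same 16 hearts, as Ing4+/- over Ing4+/+. EdgeR called 0 of the 15785 genes for it (lowest adjusted p 0.493), and 848 (5.37%) had an unadjusted p under 0.05, among them 23 of the 176 genes (13.1%). The 106 genes higher in Ing5-/- hearts differed by a median of 0.16 (log2) for Ing4, and the 70 lower ones by -0.01. In 120 of the 176 genes the Ing4 difference had the same direction as the Ing5 difference. The share over all genes tested was not computed, so nothing is read from this count.

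Litter was known for every heart. Litters 4, 6 and 7 each held an Ing4+/- Ing5-/- heart and an Ing4+/- Ing5+/+ littermate. In 168 of the 176 genes (95.5%) all 3 pairs differed in the direction of the pooled change. The same held for 32.2% of all genes tested, each set against its own pooled change. These 6 hearts are part of the 16 that chose the genes, so the pairs are a description. Litters 1 and 2 held only Ing5-/- hearts and litters 3 and 5 only Ing5+/+ hearts, so litter and Ing5 genotype cannot be told apart there. With litter as a block, the Ing5 difference therefore came from within litters 4, 6 and 7, with fewer degrees of freedom left. That fit called 124 genes (82 higher, 42 lower), 69 of them only in the pooled comparison. All 176 genes kept their direction in that fit, and 20 kept the call, against 66 of the other 112 called genes.

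Single hearts moved the calls. Of the 176 genes 63 were called without each heart in turn and 113 lost the call without at least 1. Without Ing4+/+ Ing5-/- 1 the pooled comparison called 476 genes, and it called 179 without Ing4+/- Ing5+/+ 1, 186 without Ing4+/- Ing5-/- 3 and 190 without Ing4+/- Ing5-/- 2. Without Ing4+/+ Ing5+/+ 2, 117 genes were called only in the pooled comparison. The hearts that stood apart often held the most extreme value of their side. Among the 106 higher genes Ing4+/+ Ing5-/- 1 was the highest Ing5-/- heart in 31 and Ing4+/- Ing5-/- 2 in 29, and among the 70 lower genes they were the lowest in 29 and 21. Ing4+/- Ing5+/+ 4 was the lowest Ing5+/+ heart in 32 of the higher genes and the highest in 20. In the lower genes it was the highest in 25 and the lowest in 11. Ing4+/+ Ing5-/- 4, which did not stand apart, was the lowest Ing5-/- heart in 46 of the higher genes and the highest in 2. Notch3, Cx3cr1, Tyrobp, C1qc, C3, Msr1, Ccl9, Bmp6, Eef1a2, Map3k8 and AU015836 were the genes among the 176 that kept the call without each heart and with litter as a block. Of these, Tyrobp, Msr1 and Ccl9 could have passed the low-count filter through the Ing5-/- hearts alone.

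**Figure D5:**
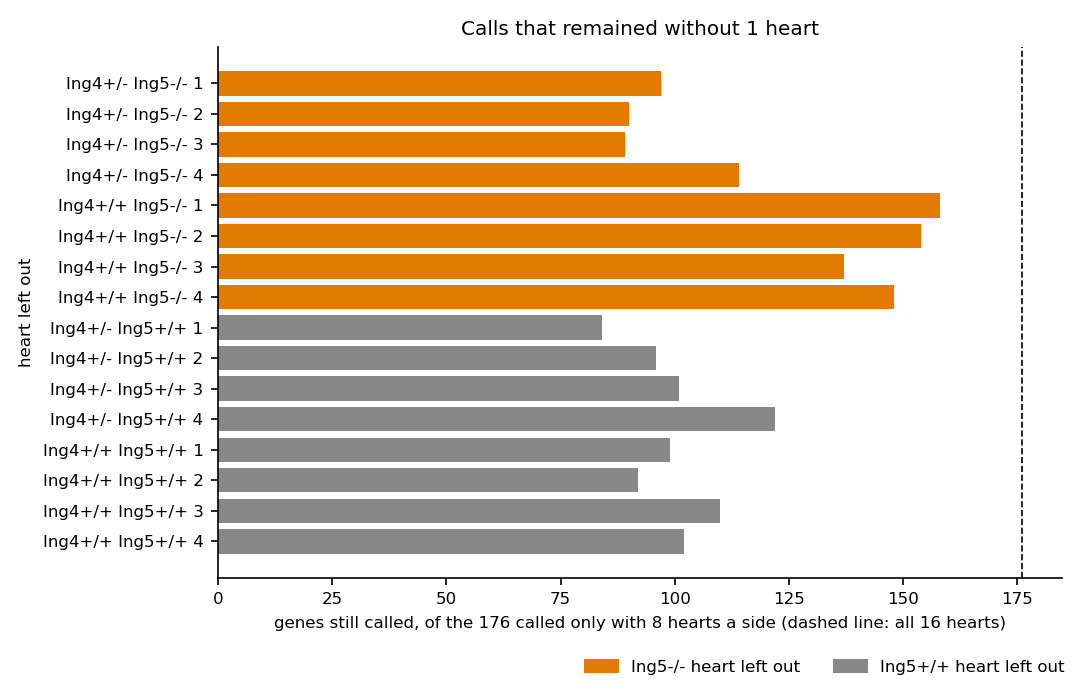
Number of the 176 genes still called in the pooled comparison when the heart named on the y axis was left out, with Ing5-/- hearts in orange above and Ing5+/+ hearts in grey below, and a dashed line at 176. Fewest remained without Ing4+/- Ing5+/+ 1 (84) and most without Ing4+/+ Ing5-/- 1 (158).

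The threshold itself separated genes with near equal evidence. The named genes just inside it were Golm2, Ccl2 and Ppbp, with log2 fold changes of -0.23, 0.93 and 1.26 and edgeR adjusted p of 0.0498, 0.0499 and 0.05. The ones just outside were Dnajb14, Dus3l and Gfpt1, with -0.30, 0.26 and -0.17 and adjusted p of 0.0501, 0.0505 and 0.0505. Dus3l, which was not called, had 42.8 to 61.7 CPM in Ing5-/- hearts and 36.3 to 42.0 CPM in Ing5+/+ hearts, with no overlap. Ccl2, a chemokine that draws monocytes, was called but overlapped, with 1.72 to 6.8 CPM in Ing5-/- hearts and 1.46 to 3.12 CPM in Ing5+/+ hearts. It lost the call without any of 13 hearts.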

How the data were processed

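RNA of 16 embryonic hearts was sequenced as total RNA from a column kit with stranded libraries, per the labels' protocols. The authors deposited raw counts of reads per gene; gene lengths in the same tables (other) did not enter any test. The submitters' processing notes name bcl2fastq and featureCounts without versions, and build mm10. The sources used here give no aligner, annotation or strand setting. All 16 single tables equalled the series table. Of 27179 gene IDs, 25275 (93%) were matched to a symbol and position; the 1904 others held 2.08% of reads.

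The main tests used edgeR 4.0.16 under R 4.3.3, and limma 3.58.1 and DESeq2 1.42.0 served as alternatives. The low-count filter kept 15785 genes and TMM factors were 0.967 to 1.08. The pooled comparison was a quasi-likelihood fit with additive Ing5 and Ing4 terms; the comparisons of 4 against 4 and the interaction came from a model of 4 group means on the same hearts. A gene was called where its p, adjusted by Benjamini-Hochberg over all genes, was under 0.05. Tests were two-sided. CPM used TMM-scaled libraries, standard errors were the log2 fold change over the root of F, and littermate differences used a prior count of 2. Replicates of a genotype differed by 6.68 to 110 in chi-square per degree of freedom, so embryos differed beyond counting error. Same-numbered hearts had residual correlations above 0.1 in 5 of 24 pairs, so numbers were not taken as pairs. The fits were tested on simulated data.

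The members, the 28 gene lists, the named-gene rule and the alternatives were chosen with earlier results of these data known. Named genes were Ing5 and Ing4; the 12 largest rises and 12 largest falls among pooled-only genes with at least 1 CPM; 5 higher and 5 lower shared genes with the smallest p; up to 4 called members per list; called genes within 10 Mb of Ing5; and 3 genes on each side of the threshold. Predicted genes, Y-linked genes and Xist were left out of the ranked choices. Bmp6, Loxl2, Plod2, Myh7b, Bnip3l, Ddit4, Hif1a, Pfkfb3, Slc16a3, Spi1, Ptprc, Mrc1, Fcer1g, Msr1, Ccl9 and the transcription factor, fat and closing-section genes, AU015836, P4ha1, P4ha2, F13a1 and the uncalled list members given by name were chosen after their values were seen.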

Additional observations from a re-analysis of the deposited data

Results flagged for a closer look

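Within each genotype of 4 hearts, 87 named genes were searched for a heart far from the other 3, which gives 348 groups. The search found 25 such hearts (7.18% of groups), and chance alone marks about 1 in 20 groups. All values are CPM, with the range of the other 3 hearts of the genotype after each. Their causes were not tested.

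Ing5 itself had 25.1 CPM in Ing4+/- Ing5-/- 2 (others 19.2 to 19.9), and Ing4 had 28.2 CPM in Ing4+/+ Ing5+/+ 2 (others 42.6 to 44.4). Csf2rb2 was far above its group in 2 genotypes, with 54.4 CPM in Ing4+/- Ing5-/- 2 (8.35 to 10.4) and 30.6 CPM in Ing4+/+ Ing5-/- 4 (3.12 to 6.15). Ing4+/- Ing5+/+ 4, the heart with the fewest genes detected, accounted for 7 of the 25. It had 0 CPM of C1qc (0.977 to 1.17) and 0 CPM of Mpeg1 (0.489 to 0.583). It had 1.26 CPM of Rgs11 (1.12 to 1.13), 12 CPM of Tmem200b (15.5 to 16.2), 114 CPM of Slc2a3 (90.7 to 93.6), 147 CPM of Bnip3l (111 to 116) and 1.79 CPM of Fmr1nb (0.489 to 0.651).

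Other Ing4+/- hearts stood apart for 6 further genes. Krt8 was at 81.6 CPM in Ing4+/- Ing5-/- 4 (63.5 to 66.4), Zadh2 at 51.8 CPM in Ing4+/- Ing5-/- 2 (62.5 to 63.7) and Pgk1 at 201 CPM in Ing4+/- Ing5-/- 3 (240 to 245). Inpp5d was at 9.79 CPM in Ing4+/- Ing5-/- 1 (13.4 to 13.8), Krt19 at 46.2 CPM in Ing4+/- Ing5+/+ 3 (37.1 to 37.4) and Ndrg1 at 4.81 CPM in Ing4+/- Ing5+/+ 1 (3.58 to 3.7).

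Among Ing4+/+ hearts, Ing4+/+ Ing5-/- 3 had 25.5 CPM of Egln3 (16.4 to 17.4) and 17.3 CPM of Aldoc (9.33 to 10.4). Ing4+/+ Ing5-/- 1 had 59.0 CPM of Golm2 (66.1 to 66.3) and 21.2 CPM of Ppbp (6.26 to 7.59), and Ing4+/+ Ing5-/- 2 had 69.1 CPM of Abat (52.9 to 55.4). Ing4+/+ Ing5+/+ 1 had 105 CPM of Gfpt1 (113 to 114) and 0.139 CPM of Msr1 (0 in the other 3), and Ing4+/+ Ing5+/+ 3 had 105 CPM of Foxp1 (85.9 to 88.9).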

How the results depend on the processing

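The 288 pooled calls and the 176 pooled-only calls moved by over 1.5 times under the DESeq2 Wald test, quality weights and litter as a block, and without some single hearts. The DESeq2 Wald test called 715 genes (435 higher, 280 lower), 388 of them pooled-only, 486 among Ing4+/- hearts, 43 among Ing4+/+ hearts and 7 for the interaction. Limma-voom with sample quality weights called 826 (464 higher, 362 lower), with 286 pooled-only, 866 among Ing4+/- hearts and 1 for the interaction. In both of these fits 175 of the 176 genes were called again in the pooled comparison. Only 78 of them with DESeq2 and 46 with quality weights were again pooled-only, so membership in this set depended on the method. Litter as a block called 124 (82 higher, 42 lower), with 69 pooled-only and 65 among Ing4+/- hearts. With no filter on low counts 3 genes were called among Ing4+/+ hearts, fits on their own 8 hearts called 261 among Ing4+/- hearts, and 107 pooled-only genes were also not under 0.10 with 4 hearts a side. The cause of these shifts was not tested.

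Leaving out 1 heart gave 179 to 476 pooled calls (123 to 290 higher, 54 to 186 lower), 117 to 247 pooled-only, 67 to 419 among Ing4+/- hearts, 0 to 5 among Ing4+/+ hearts and 0 to 1 for the interaction. The replicate number as a block called 249 genes, 147 pooled-only. With the other scalings, filters and covariates run, the pooled count was 233 to 363 and the pooled-only count 141 to 220. Of 2685 values of 87 named genes under 31 other settings, 452 lost the call, 22 gained it and 0 reversed. Low counts limit the genes under 1 CPM most, since 1 read is then a large part of a value.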

Other observations

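Outside the lists, some genes best known from meiosis and the testis were among those called only with 8 hearts a side, at low levels. Syce1, a protein of the synaptonemal complex, had 0.54, 0.739 and 1.17 CPM as the lowest, median and highest of the Ing5-/- hearts, against 0, 0.141 and 0.303 CPM in Ing5+/+ hearts (log2 fold change 2.40 ± 0.46, edgeR adjusted p = 0.00889). Its groups did not overlap. Iho1, which takes part in meiotic recombination, had 2.18, 2.96 and 4.73 CPM in Ing5-/- hearts, against 1.45, 1.72 and 2.63 CPM in Ing5+/+ hearts (0.73 ± 0.16, 0.0197; 0.055 without Ing4+/- Ing5-/- 2). Cyct, the testis form of cytochrome c, had 0.317 to 1.3 CPM in Ing5-/- hearts and 0 to 0.19 CPM in Ing5+/+ hearts (2.29 ± 0.51, 0.0242), but lost the call without either of 2 hearts (adjusted p up to 0.059). Syce1 and Cyct were below 1 CPM and could have passed the low-count filter through the Ing5-/- hearts alone.

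Atp2a1, the calcium pump of fast skeletal muscle, had 8.96, 32.9 and 39.0 CPM in Ing5-/- hearts, against 11.4, 17.3 and 19.7 CPM in Ing5+/+ hearts (0.90 ± 0.19, edgeR adjusted p = 0.0197). 7 Ing5-/- hearts lay above every Ing5+/+ heart and 1 lay below them all. Cyp26a1, which breaks down retinoic acid, had 0.115, 0.517 and 1.13 CPM in Ing5-/- hearts, against 0, 0.0376 and 0.217 CPM in Ing5+/+ hearts (3.03 ± 0.62, adjusted p = 0.0143). It had 13 reads in all 8 Ing5+/+ hearts together and 122 in the Ing5-/- hearts, so it too could have passed the filter through the Ing5-/- hearts alone.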
